A study of Mus musculus with 12 samples.

Results

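The genes of major histocompatibility complex (MHC) class II presentation were followed in the organ of Corti, where the hair cells and supporting cells of hearing lie. They were chosen by symbol as H2-Aa, H2-Ab1, H2-Eb1, H2-DMa, H2-DMb1, Cd74 and Ciita, 7 of the 55348 genes counted. All 7 passed the filter on low counts, as did 19052 genes in all. RNA came from mice at postnatal day 21 in 4 genotypes, namely wild-type, Clrn1-/-, Clrn2-/- and Clrn1-/-Clrn2-/-, each with 3 of the 12 libraries. The Clrn1 null allele had been made by removing a floxed exon with a germline Cre driven by the PGK promoter. The Clrn2 null allele, clarinet, carries a premature stop codon, and the double mutants came from crossing these lines. Clarin-1 and clarin-2, the missing proteins, are membrane proteins of hair cells. Loss of either is constitutive, so every cell of the tissue carries it. Wild-type mice were bred apart from the mutants, and a comparison with them cannot tell breeding and genotype apart. Whether a library held 1 animal or several was not given in the sources used here, and p-values measure the spread between these libraries.

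MHC class II molecules show peptides from taken-up protein to CD4 T cells. Each is a pair of an alpha and a beta chain, which in the mouse form the A molecule (H2-Aa with H2-Ab1) and the E molecule (an alpha chain with H2-Eb1). In the endoplasmic reticulum the pair is held by the invariant chain, encoded by Cd74, which blocks the peptide groove and guides the complex to endosomes. There the invariant chain is cut by proteases, and H2-M, a pair of H2-DMa and H2-DMb1, exchanges its last fragment for a peptide. Ciita, the class II transactivator, binds no DNA itself and acts through factors that sit on the X and Y boxes of class II promoters. Macrophages, dendritic cells and B cells are the cell types best known to make class II molecules, and resident macrophages are found in the cochlea.

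A short stretch before the start site holds letters of the X or Y boxes in some of these genes. RefSeq promoter windows (GRCm38.p6) of 300 bases, 250 before and 50 after a start, were given for 4 of the 7 genes, H2-Aa, H2-Eb1, H2-DMa and H2-DMb1. Those of H2-Aa and H2-Eb1, the chains called higher in the double mutant for which a window was given, are shown with that of H2-Ob, a class II gene whose level was lower there without passing the test. Each stretch runs from 120 to 11 bases before the start on chromosome 17, at chr17:34287834-34287943 on the minus strand for H2-Aa, chr17:34305747-34305856 on the plus strand for H2-Eb1 and chr17:34238785-34238894 on the plus strand for H2-Ob. Capitals mark CTAGNAAC, letters found in X boxes, TGACGTCA, the cyclic AMP response element, and GATTGG, letters found in Y boxes, on either strand.
H2-Aa: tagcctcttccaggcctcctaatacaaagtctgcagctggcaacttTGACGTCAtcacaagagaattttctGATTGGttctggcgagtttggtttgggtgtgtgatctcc
H2-Eb1: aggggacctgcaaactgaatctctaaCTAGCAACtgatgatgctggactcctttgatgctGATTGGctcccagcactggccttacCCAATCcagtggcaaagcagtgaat
H2-Ob: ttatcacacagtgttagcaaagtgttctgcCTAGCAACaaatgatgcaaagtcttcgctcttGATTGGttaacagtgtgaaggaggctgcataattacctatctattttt

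The Y box letters began 49 bases before the start in H2-Aa, 60 in H2-Eb1 and 58 in H2-Ob, and were also present 62 bases before that of H2-DMb1. Of all 32851 windows, 16.1% held them on either strand. The X box letters began 94 bases before the start in H2-Eb1, 90 in H2-Ob and 97 in H2-DMb1, and 3.62% of windows held them. Both sets of letters were in 0.518% of windows, and TGACGTCA, found 74 bases before the start of H2-Aa, was in 1.79%. One of the 2 windows of H2-DMa held the Y box letters, 199 bases before the start, and neither held the other letters. Among other class II genes, H2-Oa and H2-DMb2 held the Y box letters alone, 44 and 91 bases before the start. H2-Eb2 held both sets, the Y box letters 101 bases before the start and the X box letters 12. These matches are letters only, chosen after the sequences were seen, and whether a factor was bound was not measured.

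The class II genes were modest transcripts in this tissue. Over all 12 libraries and per kilobase of exon, Cd74 was the most abundant of the 7 at a mean of 8.04 CPM (counts scaled to one common library total) per kilobase, above 66.7% of the 18721 tested genes with a length. H2-DMb1 followed at 5.01, H2-DMa at 3.41, H2-Eb1 at 2.73, H2-Ab1 at 2.21 and H2-Aa at 1.23 CPM per kilobase. Ciita stood at 0.062 CPM per kilobase, below nearly all tested genes. The order rests on the summed exon length of each gene, which counts rarely used exons in full. H2-Ea-ps, the alpha chain gene of the E molecule that is annotated as a pseudogene in the reference strain, had no count in any library.

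The libraries held 30008679 to 41049302 counts on genes, and CPM are given on library sizes scaled by TMM. Clrn1 had 23.8 to 28.6 CPM in wild-type and 1.77 to 3.04 CPM in the 6 libraries labelled Clrn1-/- or Clrn1-/-Clrn2-/-. Clrn2 had 1.89 to 3.24 CPM in wild-type and 0.92 to 1.38 CPM in the 6 libraries labelled as lacking Clrn2, but also 0.85 to 1.04 CPM in Clrn1-/-. The hair cell markers Myo7a, Otof and Tmc1 and the other 6 of that list were tested. Their summed level was 295 to 354 CPM in wild-type and 405 to 437 CPM in the double mutant. It was 299 to 354 CPM in Clrn1-/- and 348 to 462 CPM in Clrn2-/-. Much of the rise in the double mutant was Ocm, at a mean of 67.1 CPM in wild-type and 131 CPM there. The median log2 fold change of the list there was 0.13, with 2 called higher and 1 lower, against 5.88% and 4.02% of all tested genes.

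The chains that carry the peptide had their highest means in the double mutant, although none passed a test of that genotype against either single mutant. H2-Aa, the alpha chain of the A molecule, lay on chromosome 17 (GRCm38, chr17:34282744-34287823, minus strand). It had 3.74, 4.38 and 3.04 CPM in wild-type (mean 3.72 ± 0.67, SD, n = 3), from 133, 160 and 120 counts. In Clrn1-/-Clrn2-/- it had 6.75, 5.02 and 5.08 CPM (5.62 ± 0.98), and all 3 libraries lay above those of wild-type. Clrn1-/- had 5.25, 4.53 and 3.87 CPM and Clrn2-/- 4.49, 5.23 and 4.58 CPM, between the other two genotypes in the mean. H2-Aa rose by 1.51-fold in the double mutant against wild-type (log2 fold change 0.59 ± 0.16, SE, adjusted p = 0.0075, edgeR quasi-likelihood test). In the single mutants its log2 fold change was 0.29 (95% interval -0.052 to 0.63, adjusted p = 0.204) in Clrn1-/- and 0.36 (0.020 to 0.70, adjusted p = 0.154) in Clrn2-/-.

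H2-Ab1, the beta chain that pairs with H2-Aa (chr17:34257689-34269419, plus strand), followed it closely from library to library. Its levels were 3.99, 5.29 and 3.42 CPM in wild-type and 8.46, 5.80 and 5.23 CPM in the double mutant, so that the lowest double mutant library lay just under the highest wild-type one. Clrn1-/- had 7.43, 5.56 and 5.04 CPM and Clrn2-/- 5.22, 6.76 and 5.93 CPM, and the means of these genotypes were nearly equal at 6.01 ± 1.26 and 5.97 ± 0.77 CPM. In the double mutant H2-Ab1 rose by 1.53-fold (log2 fold change 0.61 ± 0.20, SE, adjusted p = 0.023). The single mutants gave 0.50 each, with adjusted p of 0.074 in Clrn1-/- and 0.112 in Clrn2-/-, and did not pass the test. The double mutant mean of H2-Ab1 rested on replicate 1, without which its log2 fold change was -0.13 against each single mutant. Per kilobase, the level of H2-Aa was 0.56 to 0.63 times that of H2-Ab1 in wild-type and 0.54 to 0.66 times in the double mutant, ranges that overlap.

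H2-Eb1, the beta chain of the E molecule (chr17:34305867-34316674, plus strand), was the steadiest of the 3 chains in wild-type, at 4.16, 4.19 and 4.05 CPM. It had 7.51, 6.39 and 5.26 CPM in the double mutant, 6.11, 5.12 and 5.30 CPM in Clrn1-/- and 4.55, 5.69 and 5.42 CPM in Clrn2-/-. Every mutant library of each genotype lay above every wild-type library. H2-Eb1 rose by 1.54-fold in the double mutant (log2 fold change 0.62 ± 0.13, SE, adjusted p = 0.0015) and by 1.33-fold in Clrn1-/- (0.41 ± 0.13, adjusted p = 0.032). Under other processing or with 1 library left out, the adjusted p in Clrn1-/- reached 0.121. In Clrn2-/- the log2 fold change was 0.33 (95% interval 0.050 to 0.62, adjusted p = 0.113). The alpha chain gene H2-Ea-ps had no count in any library, and whether an E molecule was made was not measured.

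**Figure D1:**
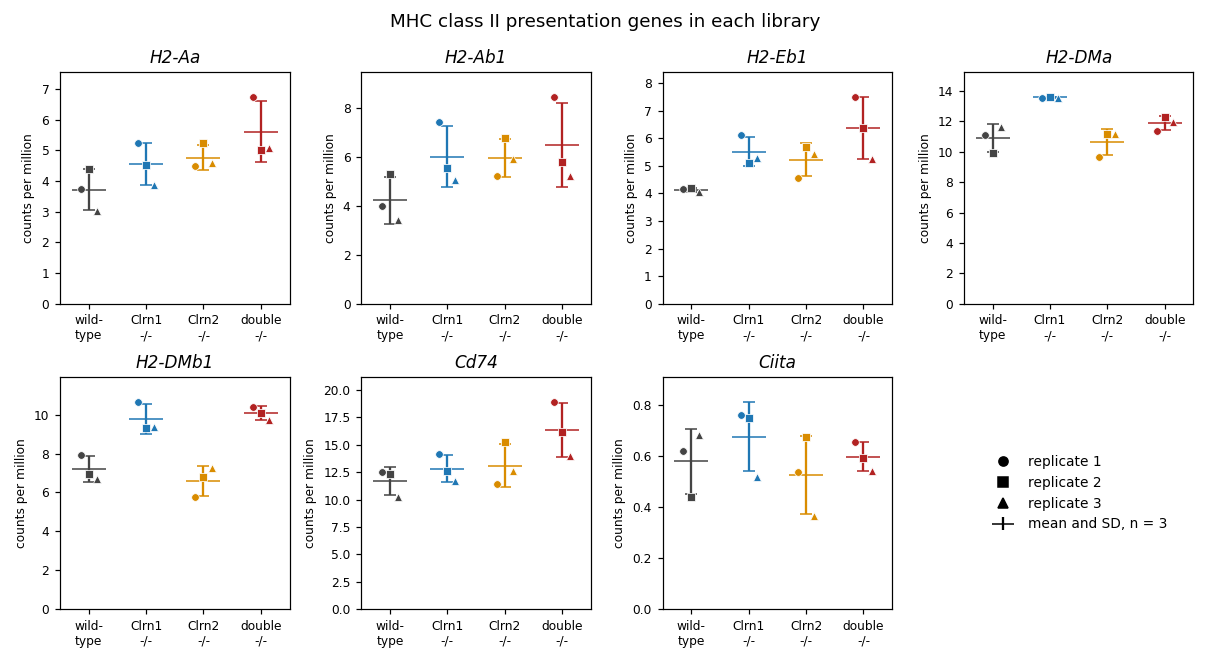
Level of each of the 7 genes in CPM (vertical axes, each starting at 0), with 1 point per library, its shape giving the replicate number, and the mean with SD of 3 libraries for wild-type, Clrn1-/-, Clrn2-/- and Clrn1-/-Clrn2-/- (labelled double). Replicate 1 of the double mutant is the highest of all 12 libraries for H2-Aa (6.75), H2-Ab1 (8.46), H2-Eb1 (7.51) and Cd74 (18.9), and H2-DMb1 is high in Clrn1-/- and the double mutant alone.

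H2-DMa and H2-DMb1, which load the peptide, were each higher in Clrn1-/- than in wild-type. H2-DMb1, the beta chain of H2-M (chr17:34153072-34160230, plus strand), had 7.95, 6.93 and 6.71 CPM in wild-type and 5.76, 6.79 and 7.28 CPM in Clrn2-/-. It had 10.7, 9.31 and 9.38 CPM in Clrn1-/- and 10.4, 10.1 and 9.75 CPM in the double mutant. The libraries thus fell into a lower range shared by wild-type and Clrn2-/- and a higher one shared by the genotypes without Clrn1, with no overlap. H2-DMb1 rose by 1.36-fold in Clrn1-/- against wild-type (log2 fold change 0.44 ± 0.10, SE, adjusted p = 0.0038) and by 1.40-fold in the double mutant (0.49 ± 0.10, adjusted p = 0.0011). In Clrn2-/- its log2 fold change was -0.12 (95% interval -0.34 to 0.096, adjusted p = 0.485). H2-DMb1 is a close copy of its neighbour H2-DMb2, with 11.3% of its stretches of 100 transcribed bases found there too, so that some reads cannot be assigned to either.

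H2-DMa, the alpha chain of H2-M (chr17:34119541-34139101, plus strand), was highest in Clrn1-/-, where the 3 libraries were nearly equal at 13.5, 13.6 and 13.5 CPM. It had 11.1, 9.89 and 11.6 CPM in wild-type, 9.66, 11.1 and 11.2 CPM in Clrn2-/- and 11.4, 12.3 and 11.9 CPM in the double mutant. H2-DMa rose by 1.25-fold in Clrn1-/- against wild-type (log2 fold change 0.32 ± 0.079, SE, adjusted p = 0.0076), without overlap of the libraries. The double mutant gave 0.13 (95% interval -0.045 to 0.30, adjusted p = 0.245) and Clrn2-/- gave -0.033 (adjusted p = 0.841). Per kilobase, H2-DMa stood at 0.68 to 0.85 times H2-DMb1 in wild-type and at 0.53 to 0.60 times in the double mutant. The annotation places 360 exon bases of H2-DMa opposite exons of Brd2 and 2 other genes on the other strand, and only counts in the direction of H2-DMa were used. In the other direction 447 to 740 counts per library fell on the locus, more than in its own. These were 635, 740 and 734 in Clrn1-/- and 540, 543 and 660 in wild-type, and their part in the rise of H2-DMa was not tested.

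Cd74, the invariant chain, had 12.6, 12.4 and 10.2 CPM in wild-type and 18.9, 16.2 and 13.97 CPM in the double mutant, with every double mutant library above every wild-type one. Clrn1-/- had 14.2, 12.6 and 11.7 CPM and Clrn2-/- 11.5, 15.3 and 12.6 CPM, and these libraries overlapped with wild-type. Cd74 rose by 1.40-fold in the double mutant (log2 fold change 0.48 ± 0.12, SE, adjusted p = 0.0060). Its log2 fold change was 0.13 in Clrn1-/- (95% interval -0.13 to 0.40, adjusted p = 0.48) and 0.16 in Clrn2-/- (-0.10 to 0.43, adjusted p = 0.441). The 3 chains summed to 94.6 to 112% of the Cd74 level in wild-type, 120 to 133% in Clrn1-/-, 116 to 127% in Clrn2-/- and 106 to 120% in the double mutant, in CPM.

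Ciita, the transactivator (chr16:10480059-10528418, plus strand), had 13 to 29 counts per library. Its levels were 0.62, 0.44 and 0.68 CPM in wild-type, 0.76, 0.75 and 0.52 CPM in Clrn1-/-, 0.54, 0.67 and 0.37 CPM in Clrn2-/- and 0.66, 0.59 and 0.54 CPM in the double mutant. The genotypes overlapped throughout. The log2 fold change against wild-type was 0.21 in Clrn1-/- (95% interval -0.38 to 0.80, adjusted p = 0.62), -0.15 in Clrn2-/- (-0.76 to 0.46, adjusted p = 0.787) and 0.032 in the double mutant (-0.57 to 0.63, adjusted p = 0.945). A change as large as that of the chains in the double mutant lies within the interval there, so it was not excluded. Ciita shares 329 exon bases with Dexi on the other strand, and 55 to 97 counts per library fell on the locus in that direction, more than in its own.

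Against wild-type, the double mutant moved the most genes of the group. Calls needed a change of at least 1.5-fold and an adjusted p no higher than 0.05, while a gene past that p alone is said to have risen or fallen. In Clrn1-/-Clrn2-/- 3 of the 7 were called higher, H2-Aa, H2-Ab1 and H2-Eb1, against 5.88% of all tested genes. By adjusted p alone 5 of 7 were higher, with H2-DMb1 and Cd74 added, against 19.1% of all. In Clrn1-/- none was called higher, against 3.52%, and 3 were higher by adjusted p alone (H2-Eb1, H2-DMa and H2-DMb1), against 13.6%. In Clrn2-/- none was called, against 1.24%, and none passed the adjusted p alone, against 7.14%, although H2-Aa, H2-Ab1 and H2-Eb1 had unadjusted p of 0.039, 0.024 and 0.024. None of the 7 was called lower in Clrn1-/-, Clrn2-/- or the double mutant, against 3.7%, 1.42% and 4.02% of all genes, or passed the adjusted p in that direction, against 13.3%, 7.07% and 17.9%. The median log2 fold change of the 7 was 0.32 in Clrn1-/-, 0.16 in Clrn2-/- and 0.49 in the double mutant, beside -0.0031, -0.0025 and 0.0010 over all genes tested. Libraries lay wholly above wild-type for 3, 2 and 4 of the 7, beside 20.5%, 14.6% and 25% of all genes. The comparisons share the wild-type libraries, and the lowest wild-type value of 5 of the 7 genes (all but H2-DMa and Ciita) came from replicate 3.

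**Figure D2:**
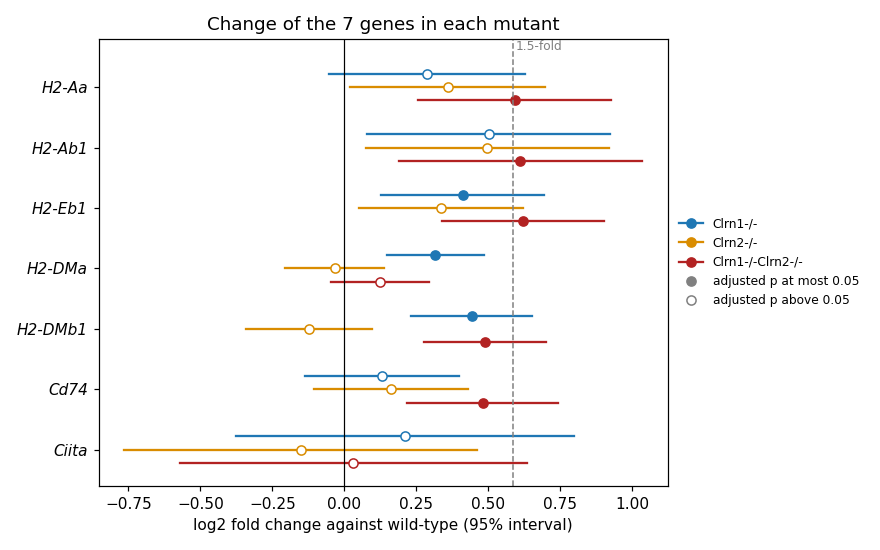
Log2 fold change of the 7 genes against wild-type (horizontal axis) with 95% intervals, in Clrn1-/-, Clrn2-/- and Clrn1-/-Clrn2-/-; filled points have an adjusted p of at most 0.05, and the dashed line marks a change of 1.5-fold. H2-Aa, H2-Ab1 and H2-Eb1 pass the line in the double mutant alone, at 0.59, 0.61 and 0.62, with intervals that reach to both sides of it.

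The calls in the double mutant lay close to the fold minimum. Without replicate 1 of the double mutant none of the 7 was called, with log2 fold changes of 0.44 for H2-Aa (adjusted p = 0.053), 0.38 for H2-Ab1 (adjusted p = 0.157) and 0.49 for H2-Eb1 (adjusted p = 0.012). Without replicate 3 of wild-type H2-Eb1 alone was called, and H2-Aa and H2-Ab1 stood at 0.45 and 0.46. Without replicate 1 of wild-type H2-Ab1 lost its call, at 0.57 (adjusted p = 0.074). The adjusted p alone of H2-Eb1, H2-DMb1 and Cd74 stayed at or below 0.05 in all 21 alternatives, with highest values of 0.012, 0.0065 and 0.044.

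**Figure D3:**
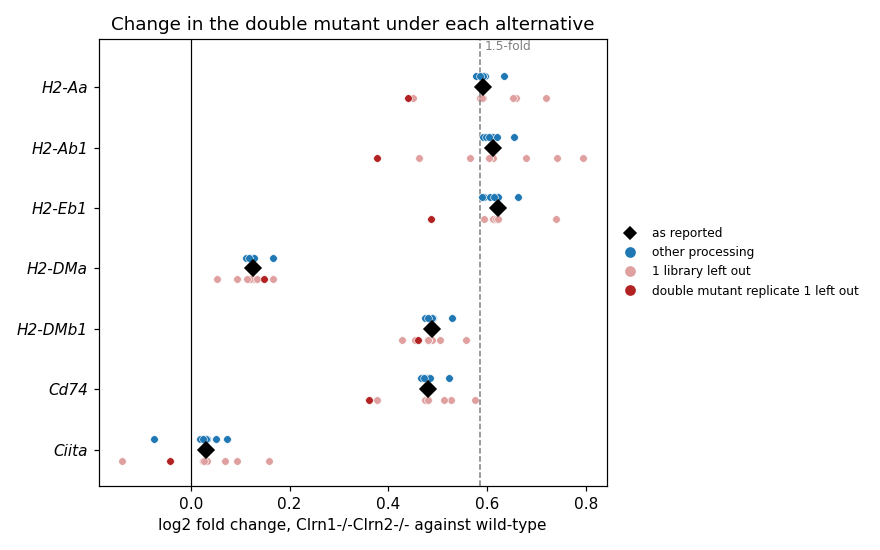
Log2 fold change of the 7 genes between Clrn1-/-Clrn2-/- and wild-type (horizontal axis) as reported (black), under other processing (blue) and with 1 library left out (pink, or red for replicate 1 of the double mutant); the dashed line marks 1.5-fold. H2-Aa, H2-Ab1 and H2-Eb1 straddle the line, reaching 0.44, 0.38 and 0.49 at the lowest, while all values of H2-DMb1 and Cd74 lie between 0.36 and 0.58.

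Between the mutants, the H2-M genes differed between Clrn1-/- and Clrn2-/-, while no chain passed that test. H2-DMb1 was 1.48-fold higher in Clrn1-/- than in Clrn2-/- (log2 fold change 0.56 ± 0.10, SE, adjusted p = 0.0011) and H2-DMa 1.27-fold (0.35 ± 0.080, adjusted p = 0.0063). These 2 of 7 passed the adjusted p alone, against 9.51% of all genes, and none reached 1.5-fold, against 2.4% called. The difference was -0.071 for H2-Aa (95% interval -0.40 to 0.26), 0.0052 for H2-Ab1 (-0.41 to 0.42) and 0.076 for H2-Eb1 (-0.20 to 0.36), and none of these passed the test.

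Compared with Clrn1-/-, the double mutant had 1.27-fold more Cd74 (log2 fold change 0.35 ± 0.12, SE, adjusted p = 0.042), the only one of the 7 past the adjusted p, against 15.7% of all genes, and none was called higher, against 4.62%. That p rose to 0.229 without replicate 1 of the double mutant. Compared with Clrn2-/-, H2-DMb1 was 1.53-fold higher in the double mutant (0.61 ± 0.10, adjusted p = 0.00037) and was the 1 gene called, against 3.67%, and the 1 past the adjusted p, against 14.4%. The call was lost without replicate 1 of the double mutant (0.58) or replicate 1 of Clrn2-/- (0.51), where the adjusted p remained at or below 0.0030. The interaction asks whether the change in the double mutant differs from the sum of the single mutants on the log2 scale. None of the 7 passed its test, against 17.4% of all genes in either direction. The interaction was -0.055 for H2-Aa (95% interval -0.53 to 0.42), -0.39 for H2-Ab1 (-0.98 to 0.20), -0.12 for H2-Eb1 (-0.52 to 0.27), 0.17 for H2-DMb1 (-0.13 to 0.47) and 0.19 for Cd74 (-0.19 to 0.56).

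Few other genes of the pathway were called, which in lists this short lies near the shares of all tested genes. Against wild-type, the shares called in Clrn1-/-, Clrn2-/- and the double mutant were 3.52%, 1.24% and 5.88% higher and 3.7%, 1.42% and 4.02% lower. By adjusted p alone they were 13.6%, 7.14% and 19.1% higher and 13.3%, 7.07% and 17.9% lower. These shares stand beside each count below. Of 6 further class II chains and loading modulators, 5 were in the files and 2 passed the filter. H2-Ob, a beta chain of H2-O, which restrains H2-M, had a mean of 0.58 CPM in wild-type and 0.33 CPM in the double mutant (log2 fold change -0.82, adjusted p = 0.058), and H2-DMb2 gave -0.57 (adjusted p = 0.26). Neither passed the test. Of 9 endosomal proteases and processing genes none was called, and by adjusted p alone 5 were higher and 2 lower in Clrn1-/-, 2 higher in Clrn2-/- and 6 higher in the double mutant. Among them, Ctss, the protease best known for cutting the invariant chain in macrophages and dendritic cells, rose in Clrn1-/- (0.45, adjusted p = 0.0022) and in the double mutant (0.52, adjusted p = 0.00038). Its value in Clrn2-/- was 0.08 (adjusted p = 0.62). Ctsl, another cathepsin that cuts the invariant chain, rose by 0.48 in the double mutant (adjusted p = 2.7e-07).

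Of the 10 factors that bind class II promoters or act with Ciita, none was called. In the double mutant 6 were higher by adjusted p alone and 2 lower, the latter being Rfx5 (-0.24, adjusted p = 0.0094) and Rfxap (-0.23, adjusted p = 0.0060), subunits of the factor that binds the X box. Of 12 tested genes from interferon-gamma to Ciita, Irf4, a transcription factor of lymphoid and myeloid cells, was called higher in the double mutant (0.70, adjusted p = 0.022), from 0.92 to 1.51 CPM in the mean, and no other was called in any mutant against wild-type. Ifng itself did not pass the filter. Of 7 tested genes of class II turnover and costimulation, Icosl alone passed the adjusted p in the double mutant (0.28, adjusted p = 0.0090), and none did in the single mutants.

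Of 18 MHC class I presentation genes none was called against wild-type. By adjusted p alone 2 were higher in Clrn1-/-, 1 higher and 1 lower in Clrn2-/- and 6 higher in the double mutant, and their median log2 fold change there was 0.070. H2-M3, a nonclassical class I gene, was called lower in the double mutant than in Clrn2-/- (-0.60, adjusted p = 0.0020). Genes that lie between the class II genes on chromosome 17 showed no common shift. Tap1 (0.17), Tap2 (-0.02), Psmb8 (0.06) and Psmb9 (-0.34), which serve class I presentation, had adjusted p of 0.29, 0.87, 0.73 and 0.13 in the double mutant.

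Markers of macrophages rose in Clrn1-/- and in the double mutant, while few passed a test in Clrn2-/-. In bulk tissue, more cells of a type and more RNA per cell cannot be told apart. Of 22 macrophage and microglia markers, 6 were called higher in Clrn1-/-, 1 in Clrn2-/- and 15 in the double mutant, against 3.52%, 1.24% and 5.88% of all tested genes. None was called lower, against 3.7%, 1.42% and 4.02%, and the medians were 0.51, 0.23 and 0.71. By adjusted p alone 13, 2 and 18 were higher, against 13.6%, 7.14% and 19.1%. The list summed to 209 to 274 CPM in wild-type, 355 to 385 CPM in Clrn1-/-, 256 to 315 CPM in Clrn2-/- and 380 to 443 CPM in the double mutant, and no marker of it was at 0 in any genotype. Lyz2, a lysozyme of myeloid cells, rose the most, by 1.41 in the double mutant (adjusted p = 2.9e-09) and 1.22 in Clrn1-/- (adjusted p = 3.2e-08). Aif1, a macrophage marker, was the 1 called in Clrn2-/- (0.67, adjusted p = 0.0040) and rose by 0.96 in the double mutant (adjusted p = 4.0e-05). Csf1r, the receptor that macrophages depend on, gave 0.35 in Clrn1-/- (adjusted p = 0.011), -0.02 in Clrn2-/- (adjusted p = 0.93) and 0.34 in the double mutant (adjusted p = 0.0089). Ptprc, present in all white blood cells, gave 0.38 in the double mutant (adjusted p = 0.077).

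The library highest in macrophage markers, replicate 1 of the double mutant, was also the highest in H2-Aa, H2-Ab1, H2-Eb1 and Cd74, and the lowest, replicate 3 of wild-type, was the lowest in these 4. As a share of the summed macrophage markers, the 3 chains stood at 4.55 to 5.07% in wild-type, 3.996 to 4.87% in Clrn1-/-, 5.53 to 5.61% in Clrn2-/- and 4.10 to 5.13% in the double mutant. The double mutant range overlapped with that of wild-type on this scale, and that of Clrn2-/- lay above all others. Single markers gave other orders. Set against Csf1r alone, the chains stood at 23.1 to 27.2% in wild-type, 24.3 to 30.2% in Clrn1-/-, 33.4 to 34.2% in Clrn2-/- and 28.1 to 35.0% in the double mutant, where the double mutant no longer overlapped with wild-type. Against Ptprc they stood at 191 to 294% in wild-type and 258 to 332% in the double mutant, and against Adgre1 at 172 to 239% and 141 to 178%, both overlapping. Which scale fits the cells that make class II is not known from these data, and the part of macrophage number in the result was not tested.

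**Figure D4:**
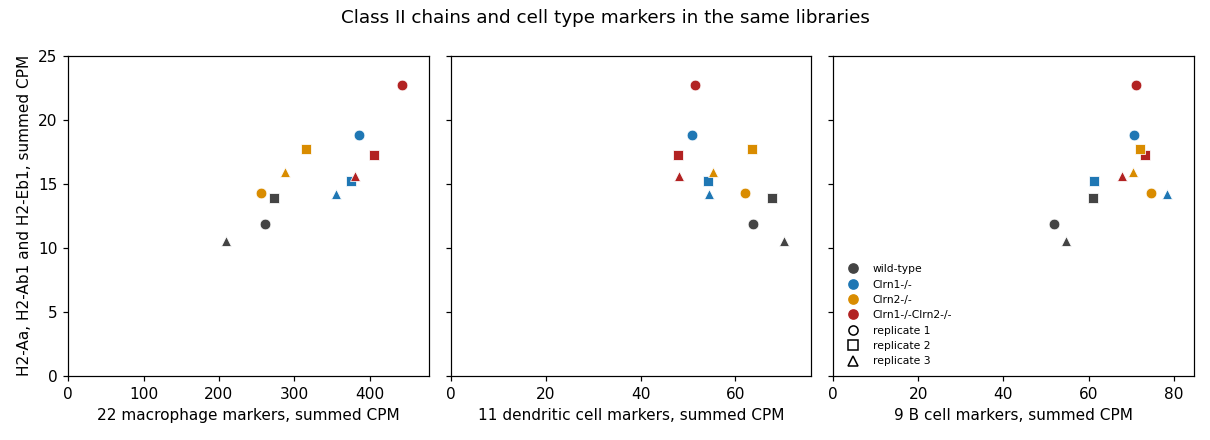
Summed CPM of H2-Aa, H2-Ab1 and H2-Eb1 (vertical axis) against the summed CPM of macrophage, dendritic cell and B cell markers (horizontal axes), with 1 point per library, coloured by genotype and shaped by replicate number; all axes start at 0. Chains and macrophage markers are both lowest in replicate 3 of wild-type (209 CPM of markers) and highest in replicate 1 of the double mutant (443 CPM), and the dendritic cell sum, of which Flt3 makes up most, is lower in the double mutant than in wild-type although 6 of the 8 tested markers on that list have values above 0 there.

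Markers of the other cells that make class II were mixed. Of 11 dendritic cell markers 8 were tested, and 6 of them had log2 fold changes above 0 in the double mutant (median 0.47), 6 in Clrn1-/- (0.24) and 4 in Clrn2-/- (0.040). The list nevertheless summed to 63.7 to 70.3 CPM in wild-type and 47.9 to 51.5 CPM in the double mutant. That sum was mostly Flt3, a receptor of dendritic cells and their precursors, which fell in Clrn1-/- (-0.59, adjusted p = 2.7e-05) and in the double mutant (-0.75, adjusted p = 1.1e-06). Batf3, a transcription factor of these cells, rose in the double mutant (0.71, adjusted p = 0.028). Itgax, the integrin chain CD11c, had 18 to 41 counts in a library, Zbtb46 gave 0.22 in the double mutant (adjusted p = 0.050), and Xcr1, Clec9a and Ccr7 did not pass the filter.

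Of 9 B cell markers 8 were tested and none was called. Their sum, 51.9 to 61.1 CPM in wild-type and 67.9 to 73.3 CPM in the double mutant, was mostly Ighm, which rose in all 3 mutants (0.36, 0.45 and 0.38). Log2 fold changes were above 0 for 7 of the 8 in Clrn1-/- (median 0.24), 2 in Clrn2-/- (-0.20) and 3 in the double mutant (-0.12). There the defining markers Cd79a and Ms4a1 gave -0.29 and -0.59, with adjusted p of 0.48 and 0.24, while Blnk, an adaptor of B cell and myeloid signalling, rose by 0.58 (adjusted p = 0.0025). Of 12 T cell and NK cell markers 5 were tested, and Cd4, which mouse macrophages can also make at a low level, was called higher in Clrn1-/- (1.03) and in the double mutant (1.83, adjusted p = 1.8e-05), while Cd3e gave -0.13 and -0.14.

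Other marker lists moved as well. Of 8 tested neutrophil and marrow markers 5 were called higher in Clrn1-/-, such as S100a8 (0.95, adjusted p = 0.028), against 3.52% of all tested genes. None was called in Clrn2-/- or the double mutant, against 1.24% and 5.88% higher. The neutrophil and marrow list summed to 38.4 CPM in replicate 1 of the double mutant, against 17.4 and 16.4 CPM in the other two, and to 9.08 CPM in replicate 3 of wild-type, against 24.5 and 23.3 CPM. Leaving out either of these libraries ended calls of the chains. Red blood cell markers were called lower in all mutants, 6 of 6 in Clrn1-/-, 5 in Clrn2-/- and 2 in the double mutant, against 3.7%, 1.42% and 4.02% of all tested genes. Hbb-bs stood at -1.42, -0.63 and -0.56. Supporting cell markers summed to 1348 to 1444 CPM in wild-type and 1895 to 1977 CPM in the double mutant. Their sums were 1309 to 1384 CPM in Clrn1-/- and 1298 to 1472 CPM in Clrn2-/-. In the double mutant 3 of these 9 markers were called higher and 1 lower, against 5.88% and 4.02% of all tested genes. None of 6 endothelial markers was called against wild-type, and Emcn, an endothelial surface protein, was called higher in the double mutant than in Clrn1-/- (0.76) and Clrn2-/- (0.64). The part of these shifts in the class II values was not tested.

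Over the 12 libraries, the log2 CPM of H2-Aa correlated with that of H2-Ab1 at 0.94, but with Ciita at 0.10 and with H2-DMa at 0.026 (Pearson). The mean of the centred log2 CPM of the 7 thus joins unlike patterns. The genes most like that mean were found by Pearson correlation, among 15400 genes of at least 1 CPM. They were Prkg1 (0.96), C3ar1 (0.95), Pign (0.95), Ctss (0.94), Gabpa (0.94), Gfra2 (0.94), Fyb (0.94), Adgre1 (0.93), Pde5a (0.93) and Cers6 (0.93). C3ar1, a complement receptor, and Adgre1, the macrophage antigen F4/80, are markers of myeloid cells. Their Spearman coefficients were 0.97 and 0.90. The ranking picks the best of many genes over libraries that share genotype and depth, so these values describe the ranking.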

How the data were processed

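RNA was measured by strand-specific sequencing of polyadenylated RNA in 12 organ of Corti libraries. The deposited values are whole-number counts, made by the authors with STAR from GRCm38.p6 and Gencode M24 and not normalized, filtered or pooled. STAR's version is not given in the sources used here. Of the 3 count columns, the one in the direction of the kit was used, which held 95.2 to 95.6% of stranded counts. The 4 rows of unassigned reads, 13.5 to 15.8% of a library, were left out. Depth was 30008679 to 41049302 counts on genes.

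Tests used edgeR 4.0.16 in R 4.3.3, with filterByExpr at a minimum count of 10, TMM scaling, 1 quasi-likelihood fit over all 12 libraries with genotype alone, and Benjamini-Hochberg adjustment over 19052 genes. Calls used the study's thresholds, 0.05 for the adjusted p and 1.5-fold for the change. Standard errors were derived from the test statistic. The scripts were tested on simulated data. The study's own test, limma-voom, was run as an alternative with limma 3.58.1, beside DESeq2 1.42.0, no filter on low counts, no fold minimum, scaling by library size alone, unstranded counts, 2 genotypes alone, the replicate number as a block, and each library left out. A fit on protein-coding, antisense and lincRNA genes alone was added after seeing the data.

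The 7 genes, the lists and the tests were chosen with earlier results of these data known. Named are the 7 genes, Clrn1 and Clrn2, up to 3 called genes per direction from each list, fixed defining markers (1 is not reported here), and the 10 genes most like the 7. Other list genes (Ctss, Ctsl, Rfx5, Rfxap, Icosl, H2-Ob, H2-DMb2, H2-Oa, H2-Eb2, Blnk, Tap1, Tap2, Psmb8 and Psmb9) were named after their values were seen. Gene positions and lengths came from Gencode M21 on the same build. Same-numbered libraries correlated above 0.1, in deviations from their group means over 12453 genes, in 7 of 18 pairs (range -0.277 to 0.301). Wild-type and Clrn1-/- libraries did so for each number (0.269, 0.126 and 0.105), and only there were the numbers taken to pair libraries. The labels do not say what a number stands for. Libraries of 1 genotype differed beyond counting noise and were all kept.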

Additional observations from a re-analysis of the deposited data

How the results depend on the processing

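With no fold minimum, genes counted as higher rose from 0 to 3 in Clrn1-/- and from 3 to 5 in Clrn1-/-Clrn2-/- against wild-type, from 0 to 2 in Clrn1-/- against Clrn2-/-, and from 0 to 1 in the double mutant against Clrn1-/-. With 1 library left out the counts ranged from 0 to 1 in Clrn1-/- and in Clrn2-/- (H2-Ab1, without replicate 2 of wild-type), from 0 to 3 in the double mutant against wild-type, from 0 to 1 for Clrn1-/- against Clrn2-/- (H2-DMb1), and from 0 to 1 for the double mutant against Clrn2-/-. In the double mutant H2-Aa was called in 17, H2-Ab1 in 18 and H2-Eb1 in 20 of 21 alternatives. H2-Aa fell under the fold minimum with no filter on low counts (0.58) and in the restricted gene set (0.58).

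Signs turned only in values far from the threshold. H2-DMa in Clrn2-/- gave 0.0019 by library size alone. Ciita gave -0.075 with unstranded counts in the double mutant and 0.010 by limma-voom in the interaction. H2-Ab1 in Clrn1-/- against Clrn2-/- gave -0.013 by limma-voom, -0.000223 with no filter and -0.0011 with unstranded counts. With the replicate number as a block it gave -0.0065. The block changed no other direction and no call, and in the paired comparison of Clrn1-/- with wild-type it left 0 called. With 1 library left out, values in Clrn2-/- ranged from -0.094 to 0.040 for H2-DMa and -0.36 to 0.061 for Ciita, and Ciita in the double mutant from -0.14 to 0.16. For Clrn1-/- against Clrn2-/- they ranged from -0.18 to 0.032 for H2-Aa, -0.17 to 0.12 for H2-Ab1, -0.027 to 0.14 for H2-Eb1 and -0.13 to 0.094 for Cd74. The double mutant ranged from -0.13 to 0.27 for H2-Ab1 and -6.9e-05 to 0.099 for H2-DMb1 against Clrn1-/-, and from -0.13 to 0.24 for H2-Ab1 and -0.035 to 0.38 for Ciita against Clrn2-/-. The interaction ranged from -0.22 to 0.065 for H2-Aa and -0.25 to 0.17 for Ciita. The cause of these changes was not tested. The chains had 120 to 258 counts per library, and no detection limit was estimated.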
